A study of Rattus norvegicus with 3 samples.

Results

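The transcription factor Nrf2 (gene Nfe2l2), its inhibitor Keap1 and 8 genes that Nrf2 is known to induce (Hmox1, Nqo1, Gclc, Gclm, Srxn1, Txnrd1, Slc7a11 and Osgin1) were examined in the rat cerebellar cortex after cerebral ischemia. These 10 genes were chosen by name and found among the 38973 genes of the array through the RefSeq accession of each probe, which gave 12 probes in 14 spots. Of the 10 genes, 8 were well above background on all 3 arrays, as were 23250 of all genes. Osgin1 was well above background on the ipsilateral array only, and Gclm on none of the arrays.

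The study dealt with crossed cerebellar diaschisis, in which the cerebellum, itself spared by a stroke, is affected through its links with the damaged cerebrum. Male Wistar rats aged 9 weeks had transient occlusion of the right middle cerebral artery (MCAO) or a sham operation, and cerebellar cortex was taken 2 days later. The contralateral array held RNA of the left cerebellar cortex after MCAO, the ipsilateral array that of the right cerebellar cortex after MCAO, and the control array that of the left cerebellar cortex after the sham operation. Each RNA was a pool of 4 rats, with 1 array per group. Both MCAO pools appear to come from the same rats, so agreement between the sides is not agreement between separate animals. No test was made, the number of arrays limits the precision, and a difference given here is one between pools. Both comparisons with the control group share the control array. Nrf2 and its target heme oxygenase-1 (HO-1) were also measured as proteins in that study, in other rats, and those measurements were not used here.

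In unstressed cells Keap1 holds Nrf2 in the cytoplasm and hands it to a ubiquitin ligase, so that Nrf2 protein is short-lived. Electrophiles and oxidants modify cysteines of Keap1, and Nrf2 then builds up in the nucleus, pairs with a small Maf protein and binds antioxidant response elements in its target genes. Because this control acts on the protein, the mRNAs of target genes, many of which are in the brain expressed more in astrocytes, microglia and vascular cells than in neurons, are commonly used as its readout rather than Nfe2l2 mRNA.

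Signals were scaled so that the 3 arrays had the same 75th percentile. The scale is relative within a probe, so levels are compared between arrays and not between genes. The error given with a log2 ratio is the one stated by the scanner software for the spots, which covers neither rats nor hybridisations. Spots of 1 probe differed by less, with a median SD of 0.046 to 0.047 on the log2 scale over 2258 probes with several spots. Leaving aside control spots, each array had 58717 spots, of which 42470 (contralateral), 43028 (ipsilateral) and 43283 (control) were well above background.

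The tissue was checked by its markers. All 6 granule cell markers were well above background on every array, with a median log2 ratio to control of 0.02 contralaterally and -0.01 ipsilaterally, and Cbln1 was at -0.10 and -0.08. All 6 Purkinje cell markers were so as well, with medians of 0.09 and 0.06, and Itpr1 was at 0.22 and 0.16. Both cell types of cerebellar cortex thus gave signal on each of the 3 arrays. Markers of tissue at its border were unequal between the arrays. The summed signal of the 8 choroid plexus markers was 10664 on the contralateral, 76477 on the ipsilateral and 33896 on the control array, most of it from Ttr, while Cldn2 was not well above background on any array and Kl was not so contralaterally. Of the other 6, with this scaling none was above control contralaterally and 4 were ipsilaterally, where Slc4a5 (-1.2, past the threshold under 9 of 11 alternatives) and Clic6 (-0.31, within its error of 0.37) were below, the latter at 0.27 with normexp, so the ipsilateral sum is that of Ttr and not of every marker. Slc4a5 and Clic6 were chosen after their values were seen. The summed signal of the 6 markers of the leptomeninges was 6429, 8883 and 11673 in the same order, and Col1a2 was at -0.85 and -0.37.

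At a log2 ratio of 1, which is a doubling, few of the genes stood apart. In the contralateral cerebellar cortex none of the 10 genes had a log2 ratio to control above 1 or below -1, against 4.70% and 6.48% of all genes. In the ipsilateral cerebellar cortex 1 gene, Osgin1, was above 1 and none was below -1, against 13.4% and 3.14% of all genes. Between the sides, no gene had a contralateral to ipsilateral ratio above 1 and 1, again Osgin1, was below -1, against 1.85% and 13.4% of all genes. A single gene of 10 is close to that background. Of the 8 genes detected on every array in this way, none passed the threshold in any comparison. The share of such genes in the whole table was 1.50% above and 1.04% below for the contralateral side, 3.47% and 0.869% for the ipsilateral side, and 0.245% and 1.97% between the sides.

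The median log2 ratio of the 8 genes was 0.15 contralaterally and 0.09 ipsilaterally, beside 0.01 and 0.03 over all 23250 genes well above background. In each comparison with control, with this scaling, 6 of the 8 genes were above 0 and 2 below. Among the 6 were Gclc contralaterally at 0.0039 and Txnrd1 ipsilaterally at 0.0011. Without scaling, only Hmox1 and Nqo1 were above 0 ipsilaterally. The range ran from -0.31 for Slc7a11 to 0.74 for Nqo1 on the contralateral side, and from -0.49 for Slc7a11 to 0.81 for Hmox1 on the ipsilateral side. Between the sides the median was 0.01, with 4 genes above 0 and 4 below. The medians to control turned below 0 when the arrays were not scaled, and the ipsilateral one also with scaling to spike-in probes. These scalings moved the median of all genes as well, to -0.14 and -0.50 without scaling and to -0.07 and -0.22 with spike-in probes. Background correction by normexp moved it to 0.14 ipsilaterally. Between the sides the median of all genes was -0.01, and it was 0.37 without scaling and 0.16 with spike-in probes. Of the 11 alternatives 4 only shift whole arrays, so that a value relative to the median of all genes cannot change under them. Under the 7 others, the median of the 8 genes relative to that of all genes was above 0 in both comparisons with control. Of the 7, the filters on dim probes and outlier spots kept left the median of the 8 genes itself unchanged. Between the sides the median of the 8 genes relative to that of all genes was above 0 under 4 of the 7. The filters on dim probes and outlier spots kept, which left the median of the 8 genes unchanged, were among these 4. Of the alternatives that did change it, only a constant added to the signal kept the relative median above 0. It was below 0 with quantile normalization (-0.0029), normexp (-0.02) and the brightest probe of a gene (-0.0034). With normexp the median of the 8 genes itself was -0.10.

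**Figure D1:**
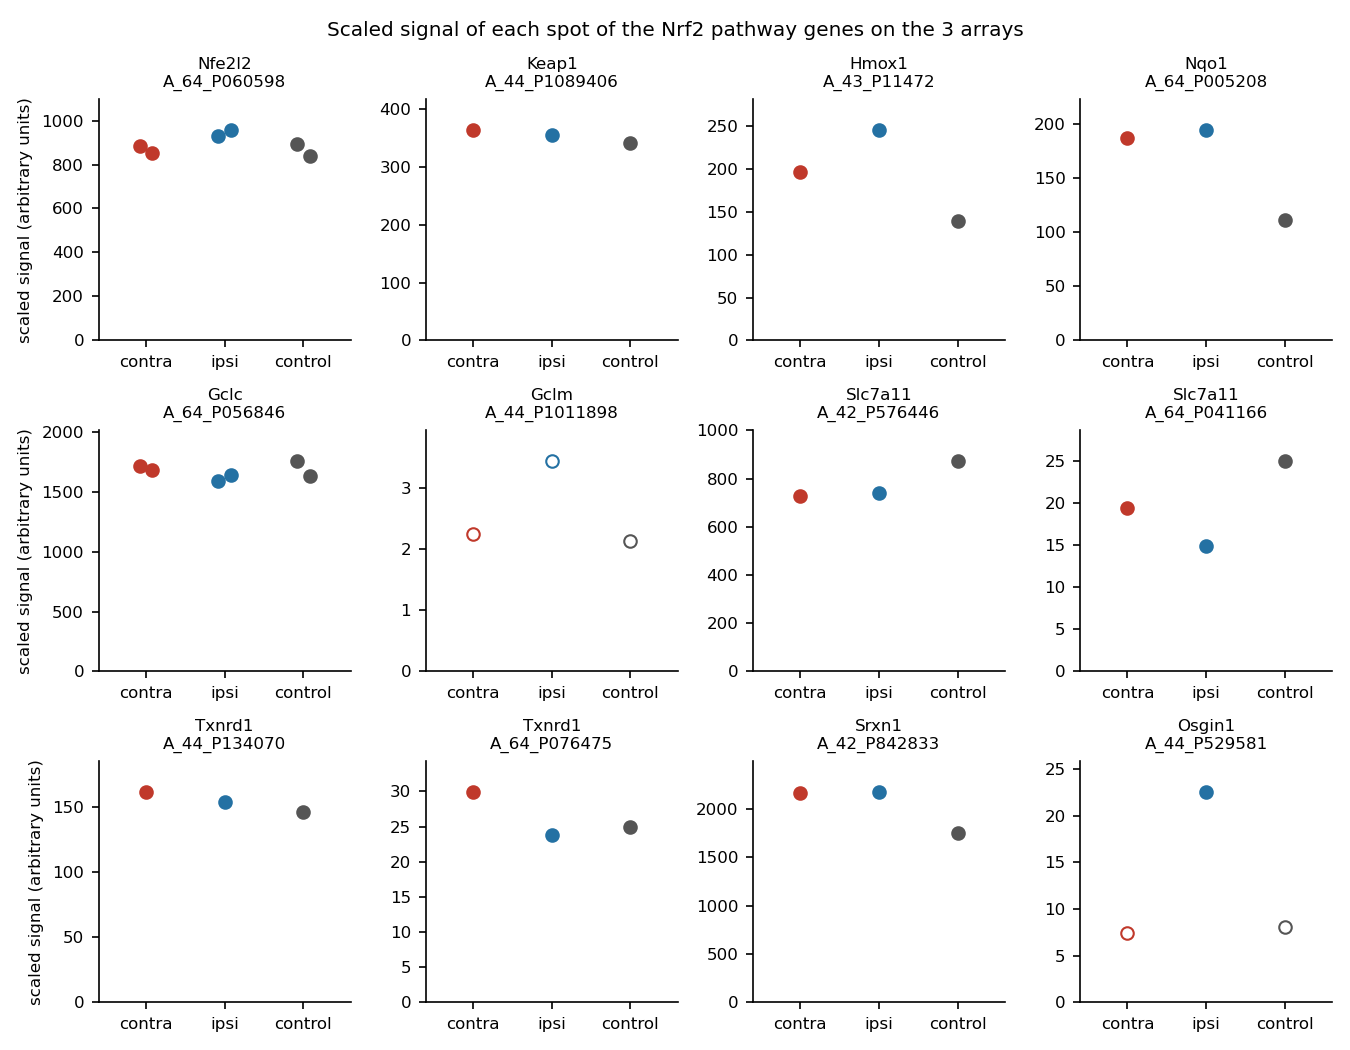
Scaled signal (arbitrary units, linear axes from 0) of each spot of the 10 genes on the contralateral (contra), ipsilateral (ipsi) and control arrays, with 1 panel per probe and open circles where the spot was not well above background. Hmox1 and Nqo1 were brighter on both MCAO arrays than on the control array, Nfe2l2, Keap1 and Gclc lay at like levels on the 3 arrays, and Osgin1 was well above background on the ipsilateral array only.

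The promoters of these genes are shown because Hmox1, Nqo1 and Srxn1 were the genes above control on both sides by more than their scanner error with this scaling, and many Nrf2 targets share a known response element. Promoters from 250 bases before to 50 bases after the start of transcription were taken from RefSeq (GRCr8) for 9 of the 10 genes, with 2 entries for Txnrd1. Hmox1 had no entry in the promoter set used here. They were searched on both strands for the core of the antioxidant response element in its forms TGACNNNGC and TGAGNNNGC, the second added after the sequences had been seen. The first form was found in 3 of the 10 promoters and in 12.06% of all 33469 promoters of this length. The second form was found in 1 of the 10, that of Srxn1, and in 17.2% of all promoters. The sequences are written 5′ to 3′ on the strand of the gene, with the matches in capitals.
Srxn1 promoter, chr3:161064562-161064861, plus strand: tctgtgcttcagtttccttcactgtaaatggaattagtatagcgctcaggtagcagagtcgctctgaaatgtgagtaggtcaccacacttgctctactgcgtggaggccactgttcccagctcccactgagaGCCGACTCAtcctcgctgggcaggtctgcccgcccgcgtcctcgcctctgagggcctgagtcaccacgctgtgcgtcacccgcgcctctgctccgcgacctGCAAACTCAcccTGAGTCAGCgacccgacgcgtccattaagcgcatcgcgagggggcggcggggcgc
Nqo1 promoter, chr19:52220218-52220517, minus strand: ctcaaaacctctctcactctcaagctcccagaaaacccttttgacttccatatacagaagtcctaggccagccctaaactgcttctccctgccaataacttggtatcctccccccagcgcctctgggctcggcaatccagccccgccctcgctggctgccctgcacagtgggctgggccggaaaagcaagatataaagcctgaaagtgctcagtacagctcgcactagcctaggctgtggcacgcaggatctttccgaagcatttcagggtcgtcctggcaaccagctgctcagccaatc
Gclm stretch, chr2:213031951-213031983, plus strand: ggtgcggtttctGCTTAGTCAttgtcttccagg
Txnrd1 stretch, chr7:22755962-22755994, minus strand: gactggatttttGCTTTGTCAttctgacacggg
Nfe2l2 stretch, chr3:81028950-81028973, minus strand: ccgactagccatTGACGCCGCctc

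The Srxn1 promoter held 3 matches, which began 118, 17 and 5 bases before the start, the first and second of them on the opposite strand. The Nqo1 promoter held none in this window. The match in Gclm began 172 and that in Txnrd1 78 bases before the start, both on the opposite strand, and that in Nfe2l2 lay 38 bases after the start on the strand of the gene. A match is a description of the letters and was not tested for binding.

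Nfe2l2 and Keap1, the regulators themselves, lay close to the control level. Nfe2l2, which encodes Nrf2, was read by probe A_64_P060598 in 2 spots. Its scaled signal was 866.4 on the contralateral, 941.8 on the ipsilateral and 866.6 on the control array. The contralateral and control arrays were thus alike and the ipsilateral array, with this scaling, slightly brighter, and the spots of the contralateral array (882.8 and 850.3) overlapped those of the control array (895.2 and 838.9). The log2 ratio to control was -0.00031 contralaterally and 0.12 ipsilaterally, each with a scanner error of 0.20, and the ratio between the sides was -0.12. None of these exceeded its error with this scaling. With spike-in probes the ipsilateral ratio turned to -0.13 and the ratio between the sides to 0.05, and without scaling the latter was 0.26, beyond its error of 0.20. Of all genes well above background, 48.0% had a lower contralateral and 65.2% a lower ipsilateral ratio to control.

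Keap1, the adaptor that delivers Nrf2 to the ubiquitin ligase, was read in 1 spot (A_44_P1089406). Its scaled signal was 362.8 on the contralateral, 355.6 on the ipsilateral and 340.5 on the control array. The 3 arrays were close, with log2 ratios to control of 0.09 and 0.06 and a scanner error of 0.20 for each. In these pools the mRNAs of neither the factor nor its inhibitor differed from the control array by more than that error. The exceptions were the ipsilateral ratios without scaling (-0.41 for Nfe2l2 and -0.47 for Keap1), and these lay beside the shift of all genes given above.

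Hmox1 was higher on both MCAO arrays. It encodes heme oxygenase-1, which splits heme into biliverdin, carbon monoxide and iron, and it was read in 1 spot (A_43_P11472). The scaled signal was 196.8 on the contralateral, 244.9 on the ipsilateral and 139.3 on the control array. The ipsilateral array was the brightest and the control array the dimmest. The signal was 1.41-fold that of the control group on the contralateral side (log2 ratio 0.50, scanner error 0.21) and 1.76-fold on the ipsilateral side (log2 ratio 0.81, scanner error 0.21). The contralateral ratio was 2.42 times and the ipsilateral ratio 3.94 times its scanner error. Of all genes well above background, 94.4% had a lower contralateral ratio and 94.6% a lower ipsilateral ratio. Between the sides the log2 ratio was -0.31, with the contralateral side the lower, and without scaling it was 0.07. Over the alternatives the ratio to control ran from 0.35 to 0.53 on the contralateral and from 0.28 (without scaling) to 0.83 on the ipsilateral side, where it was 0.56 with spike-in probes. Relative to the median of all genes it ran from 0.36 to 0.49 and from 0.60 to 0.83. In RNA of whole tissue, more cells of a type and more RNA per cell cannot be told apart.

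Macrophages and microglia express Hmox1, and their markers did not all move the same way. All 8 microglia markers were well above background, and their summed signal was 7891 on the contralateral, 9684 on the ipsilateral and 6360 on the control array. Of the 8, with this scaling 4 were above 0 contralaterally and 6 ipsilaterally, and the medians were 0.10 and 0.08. These medians were smaller than the shift of all genes without scaling given above. The sum followed C1qa (0.47 and 0.75) and Cx3cr1 (0.78 and 1.27, the latter 0.74 without scaling), while P2ry12 was at -0.01 and -0.04 and Aif1 at -0.29 and -0.10. Cx3cr1, P2ry12, Aif1, Cd163, Lcn2, S100a8 and S100a9 were chosen after their values were seen. Of 7 macrophage and neutrophil markers 5 were well above background on all arrays, Mrc1 was so on the control array only and Ccr2 on none. The summed signal of all 7 was 1268, 1857 and 1126 in the same order of arrays, most of it from Lyz2 (1065, 1577 and 977.3). Lyz2 was at 0.12, turning to -0.03 without scaling, and at 0.69. Of the 5, 4 were above 0 and 1 below on each side, and medians were 0.16 contralaterally and 0.88 ipsilaterally. Cd163, the receptor by which macrophages take up hemoglobin bound to haptoglobin, had a scaled signal of 64.7 on the contralateral, 83.7 on the ipsilateral and 22.6 on the control array, with log2 ratios of 1.52 and 1.89. Over the alternatives these fell as low as 0.66 and 0.88, and they were past the threshold under 9 and 10 of 11. Lcn2 was at -0.06 contralaterally, turning to 0.06 with normexp, and at 0.88 ipsilaterally. S100a8 was at 0.16 and -0.19, the latter turning to 0.26 with normexp, and S100a9 at 0.58 and 1.04, the latter past the threshold under 5 of 11 alternatives and as low as 0.50. The part of these cells in the Hmox1 signal was not tested.

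**Figure D2:**
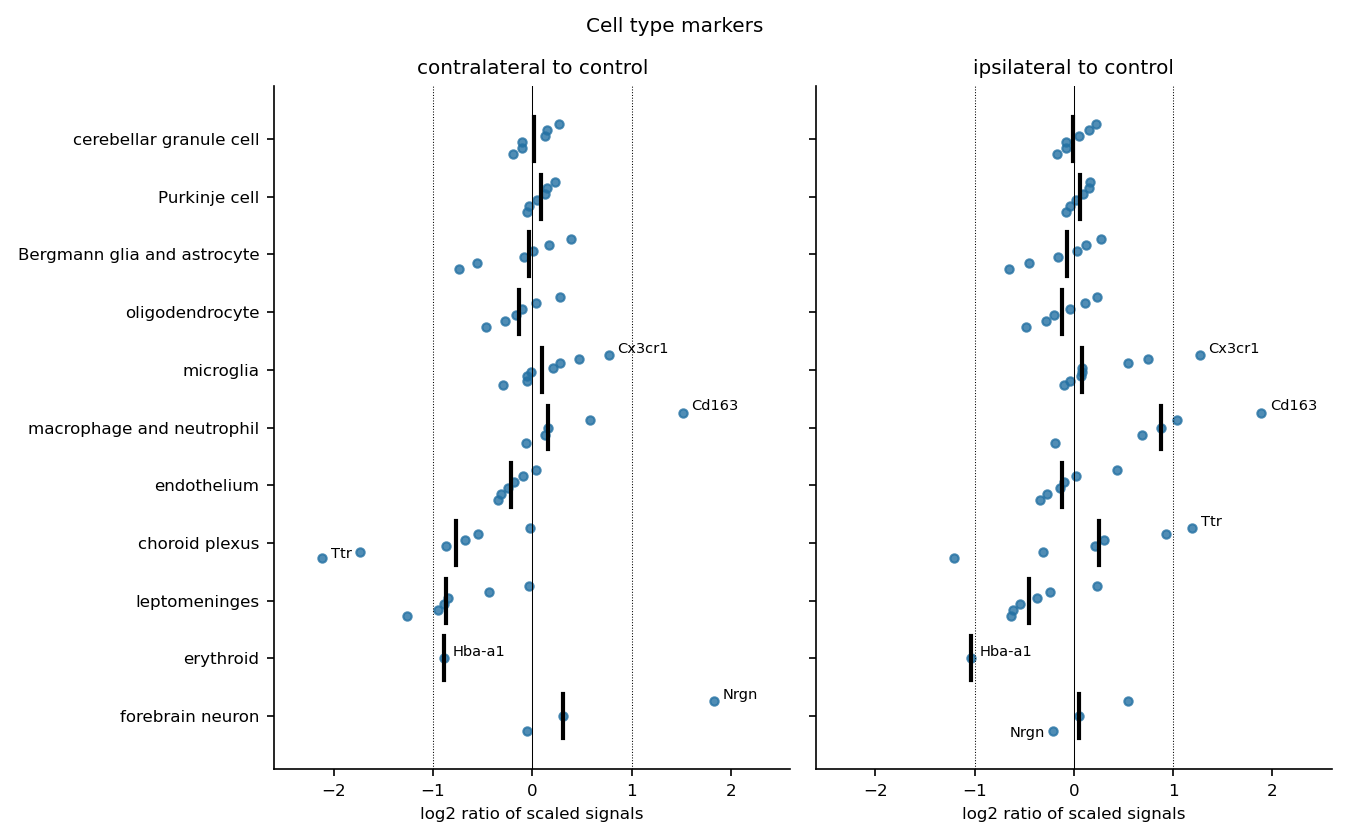
Log2 ratios to control of the cell type markers well above background on all 3 arrays, for the contralateral (left) and ipsilateral (right) side, with 1 point per gene, a bar at the median of each list and dotted lines at -1 and 1. Granule and Purkinje cell markers lay near 0, Cx3cr1 and Cd163 lay above their lists, and the choroid plexus markers differed between the sides, with Ttr at -1.73 contralaterally and 1.19 ipsilaterally, the latter past the threshold under 9 of 11 alternatives and 0.66 without scaling.

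The other genes of heme and iron handling had medians near 0 with this scaling. All 7 were well above background, with medians of -0.02 and 0.01, and 3 were above 0 contralaterally and 4 ipsilaterally. The contralateral median turned to 0.0081 with scaling by the median signal. The ipsilateral one turned to -0.52 without scaling, -0.24 with spike-in probes, -0.04 in the deposited table and -0.02 with quantile normalization. Fth1, the heavy chain of the iron store ferritin, had the largest contralateral ratio, with scaled signals of 90792, 95812 and 73325 and log2 ratios of 0.31 and 0.39. It was thus brighter on both MCAO arrays, except that its ipsilateral ratio was -0.15 without scaling. Slc40a1, the iron exporter ferroportin, had the smallest, -0.16 contralaterally and -0.24 ipsilaterally. Hmox2, the constitutive heme oxygenase and chosen after its values were seen, was at 0.04 and -0.02.

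Nqo1 was higher on both MCAO arrays, with this scaling to a like extent. It encodes a quinone reductase that is among the best known Nrf2 targets, and it was read in 1 spot (A_64_P005208). The scaled signal was 186.8 on the contralateral, 193.8 on the ipsilateral and 111.5 on the control array. Both MCAO arrays were thus brighter than the control array. The signal was 1.68-fold that of the control group on the contralateral side (log2 ratio 0.74) and 1.74-fold on the ipsilateral side (log2 ratio 0.80), with a scanner error of 0.21 for each. These ratios were 3.62 and 3.87 times their errors, and the ratio between the sides, -0.05, was smaller than its error, but it was 0.33 without scaling, beyond that error, and 0.12 with spike-in probes. On the contralateral side 97.2% of all genes well above background had a lower ratio, and on the ipsilateral side 94.4%. Nqo1 was above control under every alternative, by 0.55 to 0.78 on the contralateral and by 0.26 to 0.82 on the ipsilateral side.

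Of 10 other genes of quinone, carbonyl and xenobiotic metabolism and export, 9 were well above background on all arrays and Abcc3 on none. Of these 9, 8 were above 0 in each comparison with control, with medians of 0.11 and 0.25 that turned to -0.04 and -0.28 without scaling and, ipsilaterally, to -0.00146 with spike-in probes. The ipsilateral median was also smaller with either filter on dim probes, with the brightest probe and with quantile normalization (0.16 each) and with 50 added to the signal (0.14). Ugt1a6, chosen after its values were seen, was above 0 contralaterally only through a probe not well above background, its other probe being at -0.04. Relative to the median of all genes these medians lay above 0 under the 7 alternatives that can change this, and none of the 9 genes was past the threshold. Aldh3a1, an aldehyde dehydrogenase, had the largest contralateral ratio, with scaled signals of 137.1, 136.8 and 95.05 and log2 ratios of 0.53 on each side, the ipsilateral one falling to -0.0084 without scaling. Leaving aside genes with a dimmer probe, Cbr1, a carbonyl reductase, had the smallest, 0.03, and 0.08 on the ipsilateral side, both within its error of 0.20. The exporter Abcc1, chosen after its values were seen and with a probe not well above background, was the 1 gene below 0, at -0.70 and -0.34. Its brighter probe, well above background on all arrays, was at -0.25 and -0.41, and with normexp the gene was at -0.18 and -0.05.

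**Figure D3:**
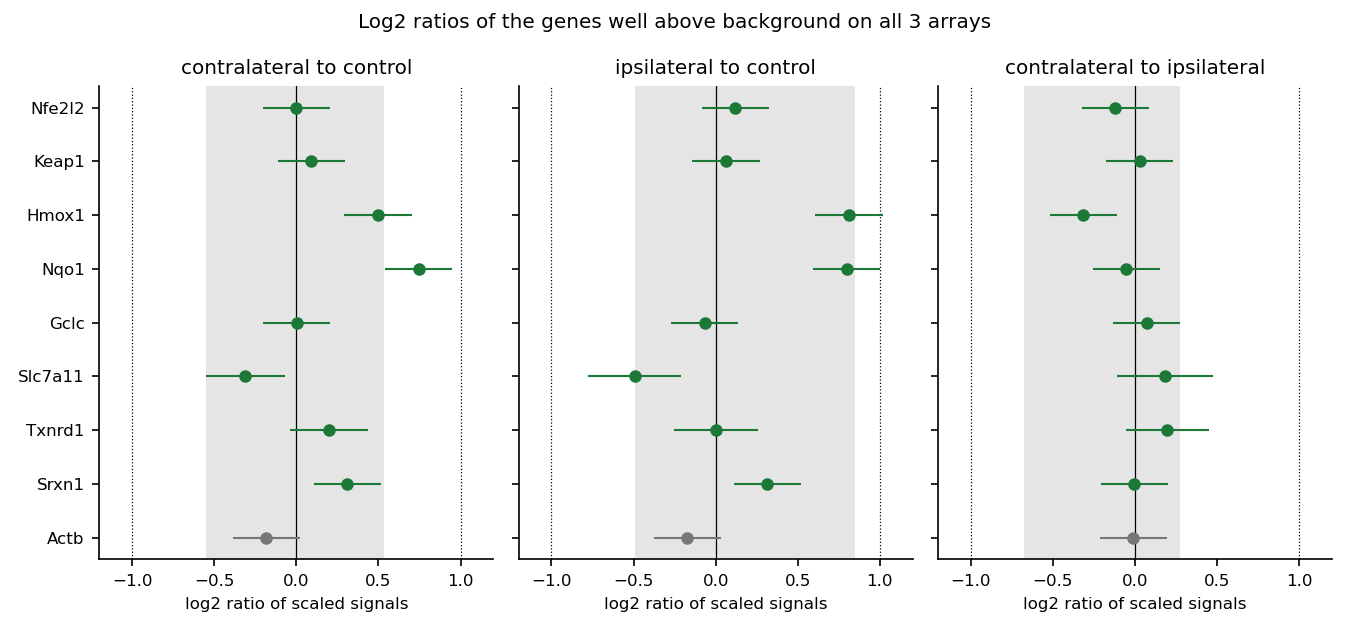
Log2 ratios of scaled signals of Actb and of the 8 genes that every array showed well above background, in the 3 comparisons, with bars for the scanner error, grey bands from the 5th to the 95th percentile of the 23250 genes well above background and dotted lines at -1 and 1. Nqo1 lay above the band on the contralateral side, Hmox1 and Nqo1 lay near its upper edge of 0.85 and Slc7a11 at its lower edge of -0.49 on the ipsilateral side, and Nfe2l2, Keap1 and Gclc lay near 0.

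Of the ligase that starts glutathione synthesis, Gclc could be compared and Gclm could not. Gclc encodes the catalytic subunit of glutamate-cysteine ligase, the enzyme of the rate-limiting step, and was read in 2 spots of probe A_64_P056846. Its scaled signal was 1699 on the contralateral, 1617 on the ipsilateral and 1694 on the control array. The arrays were alike, with log2 ratios to control of 0.0039 and -0.07 and a scanner error of 0.20, the ipsilateral one turning to -0.60 without scaling and to -0.32 with spike-in probes. Gclm, the modifier subunit of the same enzyme, was not well above background on any array (A_44_P1011898), so no ratio is given. Its signals of 2.24, 3.44 and 2.13 lay near the medians of the negative control spots, 2.17, 2.98 and 2.09.

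Slc7a11, the cystine transporter that supplies cysteine for glutathione, was the gene of the 10 furthest below the control group. Its probes gave unequal differences. Probe A_42_P576446 had scaled signals of 728.7 on the contralateral, 738.7 on the ipsilateral and 871.6 on the control array, and probe A_64_P041166 had 19.4, 14.9 and 25.0. For both probes the control array was the brightest. The first probe had log2 ratios to control of -0.26 and -0.24 with an error of 0.20, and the second -0.36 with an error of 0.28 and -0.75 with an error of 0.36. Averaged over probes, the log2 ratio of Slc7a11 was -0.31 on the contralateral (error 0.24) and -0.49 on the ipsilateral side (error 0.28). Of all genes well above background, 12.7% had a lower contralateral and 4.95% a lower ipsilateral ratio. Without scaling the ipsilateral ratio passed the threshold at -1.03, and with normexp it was 0.02.

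Among 12 other genes of glutathione synthesis, recycling and use, 11 were well above background and Gsta3 on no array. Of the 11, 8 were above 0 and 3 below in each comparison with control, with medians of 0.18 and 0.13, the second turning to -0.41 without scaling and to -0.13 with spike-in probes. Both medians lay above that of all genes under the 7 alternatives that can change this, ipsilaterally by only 0.0021 with normexp. Leaving aside genes with a dimmer probe, Gpx2, a glutathione peroxidase, had the largest contralateral ratio, with scaled signals of 50.1, 60.6 and 38.9 and log2 ratios of 0.37 and 0.64, which over the alternatives fell as low as 0.17 and 0.11, within its error of 0.23. Gstm2, a glutathione S-transferase, had the smallest, with 77.2, 78.9 and 119.7 and log2 ratios of -0.63 and -0.60. Gstm2 was thus dimmer on both MCAO arrays than on the control array by more than its scanner error of 0.21, at the weakest -0.36 and -0.22 over the alternatives. Its ipsilateral ratio was past the threshold under 1 of 11 alternatives, at -1.135. Genes of this family lay on both sides of the control level.

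Srxn1 encodes sulfiredoxin, which restores peroxiredoxins that have been overoxidised. It was read in 1 spot (A_42_P842833), and its scaled signal was 2167 on the contralateral, 2173 on the ipsilateral and 1748 on the control array. The MCAO arrays were equally bright and above the control array, with a log2 ratio of 0.31 on each side and a scanner error of 0.20. These ratios were 1.52 and 1.54 times their errors, and were not above them under every alternative. The ipsilateral one was -0.22 without scaling and within its error with spike-in probes (0.06) and normexp (0.19), and the contralateral one was within its error without scaling (0.16). Of all genes well above background, 89.4% had a lower contralateral and 82.6% a lower ipsilateral ratio.

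Txnrd1, the cytosolic thioredoxin reductase, did not differ from control by more than its error with this scaling. Its probes had scaled signals of 161.4 on the contralateral, 154.0 on the ipsilateral and 146.4 on the control array (A_44_P134070) and of 29.9, 23.8 and 25.0 (A_64_P076475). The contralateral array was the brightest for each probe, by a small margin. The mean log2 ratio to control was 0.20 with an error of 0.24 on the contralateral side and 0.0011 with an error of 0.26 on the ipsilateral side. The ipsilateral ratio was beyond that error without scaling (-0.53) and with normexp (0.28), and it was below 0 under 4 of the 11 alternatives. All 5 other genes of the thioredoxin and peroxiredoxin list were well above background, with medians of -0.16 and -0.05, which were below those of all genes under the 7 alternatives that can change this. Of these genes 2 were above 0 and 3 below on each side. Sesn2, a sestrin, had the largest contralateral ratio, 0.14, and 0.43 on the ipsilateral side, which fell to -0.01 and -0.10 without scaling. Prdx1, a peroxiredoxin and itself a known Nrf2 target, had the smallest, -0.18, and -0.17 on the ipsilateral side.

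Osgin1, an oxidative stress response gene that is known to restrain cell growth, was read in 1 spot (A_44_P529581). Its scaled signal was 7.43 on the contralateral, 22.5 on the ipsilateral and 8.06 on the control array. The ipsilateral array alone was well above background. The ratios of Osgin1 are thus approximate bounds against the lowest signal well above background, 9.12 on the contralateral and 8.715 on the control array. They are approximate because other probes above that signal were not well above background, at 10.37 on the control and 9.225 on the contralateral array. By these bounds Osgin1 was 2.58-fold higher on the ipsilateral than on the control array and 2.47-fold higher than on the contralateral array. The ipsilateral array was also the dimmest before scaling, with a 75th percentile of 1614 against 2103 on the contralateral and 2336 on the control array. Its negative control spots had a higher median after scaling, as given above for Gclm. Without scaling, Osgin1 had a bound against the control array of 0.83 on the log2 scale and was no longer past the threshold there. With normexp or 50 added to the signal it was not past it either, with bounds of 0.71 and 0.30.

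Among the remaining regulators of the pathway Maff had the largest ratio. Of 12 listed genes 11 were matched on the array (Nfe2l1 was not), and all 11 were well above background. Of these, 9 were above 0 contralaterally and 10 ipsilaterally, with medians of 0.12 and 0.13 that turned to -0.03 and -0.41 without scaling and, ipsilaterally, to -0.13 with spike-in probes. Relative to all genes the contralateral median lay above 0 under the 7 alternatives that can change this, and the ipsilateral one under 6 of them, normexp turning it to -0.0013. Maff is a small Maf protein of the kind that pairs with Nrf2 on DNA. Its scaled signal was 96.98 on the contralateral, 96.92 on the ipsilateral and 47.2 on the control array, so that both MCAO arrays were equally bright and above the control array. The log2 ratio was 1.04 on each side with a scanner error of 0.21. With this scaling Maff was thus the 1 gene past the threshold among the 49 other pathway genes well above background, beside the 1.50% and 3.47% of all such genes above 1. A single gene of 49 is close to that background. Maff was above control under every alternative, and past the threshold under 6 of 11 on each side, with the lowest values 0.60 contralaterally and 0.50 ipsilaterally. Dpp3, a protein that binds Keap1 in competition with Nrf2, had the smallest contralateral ratio, -0.10, and -0.12 on the ipsilateral side. The other small Maf genes, chosen after their values were seen, were at 0.05 and 0.06 for Mafg and at 0.29 and 0.16 for Mafk. Mafg turned below 0 under 3 of 11 alternatives contralaterally (lowest -0.10) and 2 ipsilaterally (lowest -0.475). Mafk did so under 3 ipsilaterally (lowest -0.38).

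The enzymes that supply NADPH to these reductases lay at or slightly below the control level. All 6 were well above background, and 2 were above 0 contralaterally and 1 ipsilaterally. The medians were -0.11 and -0.09, below those of all genes under the 7 alternatives that do not only shift whole arrays. Of these alternatives, the filters on dim probes and the brightest probe left both medians themselves unchanged. Idh1, the cytosolic isocitrate dehydrogenase, had the smallest contralateral ratio, with scaled signals of 436.7, 433.2 and 550.4 and log2 ratios of -0.33 and -0.35. With this scaling, the median over all 49 genes of these lists was 0.05 contralaterally and 0.07 ipsilaterally, beside 0.01 and 0.03 for all genes. Of the 49, 32 and 33 were above 0. A scaling that shifts whole arrays moves these medians and those of all genes alike.

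**Figure D4:**
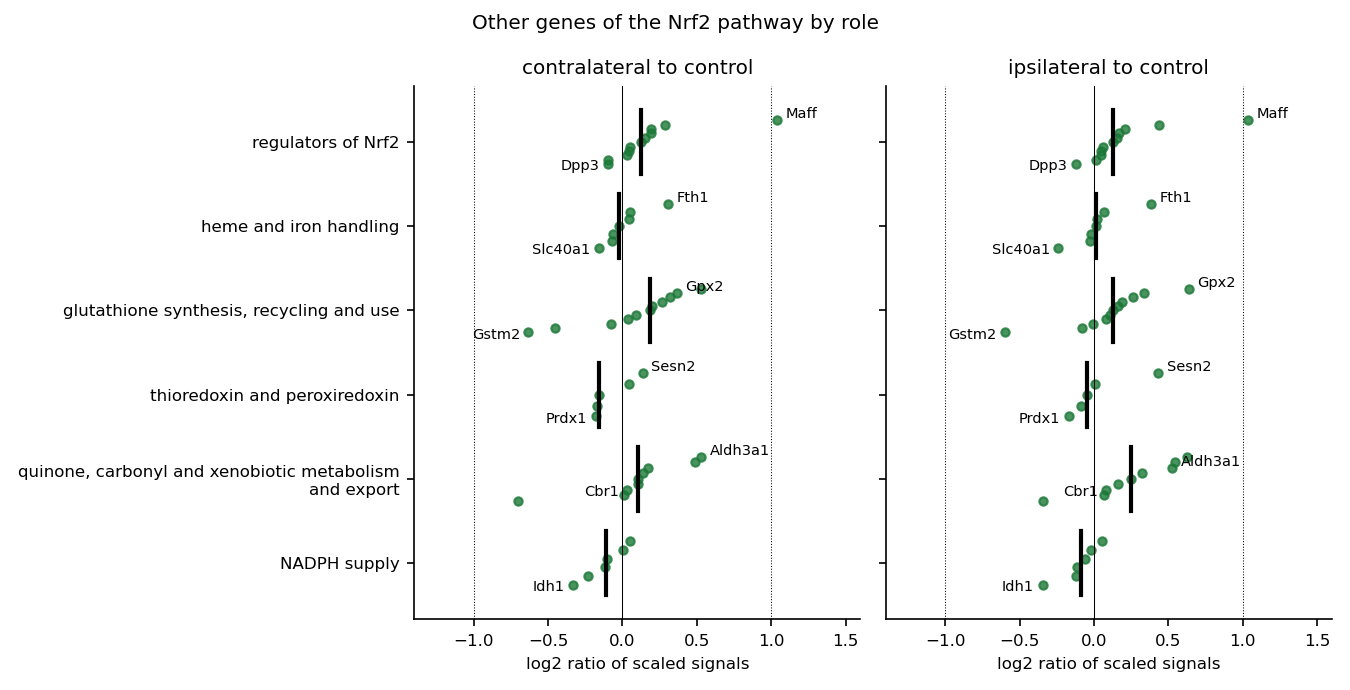
Log2 ratios to control of 49 other genes of the Nrf2 pathway well above background on all 3 arrays, by role, for the contralateral (left) and ipsilateral (right) side, with 1 point per gene, a bar at the median of each list and dotted lines at -1 and 1. Maff lay just past 1 on each side, and the rest of the genes lay between -1 and 1.

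The genes whose ratios to control lay nearest to those of Hmox1, among 11249 genes that had a symbol and no probe near background, included Mlxipl (0.48 and 0.82) and Zbtb10 (0.52 and 0.83). Within a distance of 0.1 on the log2 scale over the 2 ratios there were 16 genes. For Nfe2l2, whose ratios lay near 0, there were 1461, and the nearest were Camk1d, Arhgef19 and Tmem175. With 2 ratios per gene this says only where the values lie. Actb, the loading reference in many assays, had scaled signals of 13931 on the contralateral, 14038 on the ipsilateral and 15823 on the control array. Its log2 ratios to control were -0.18 and -0.17 with a scanner error of 0.20. Over the alternatives they ran from -0.34 to -0.15 and from -0.71 to -0.16, so Actb was never above control.

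**Figure D5:**
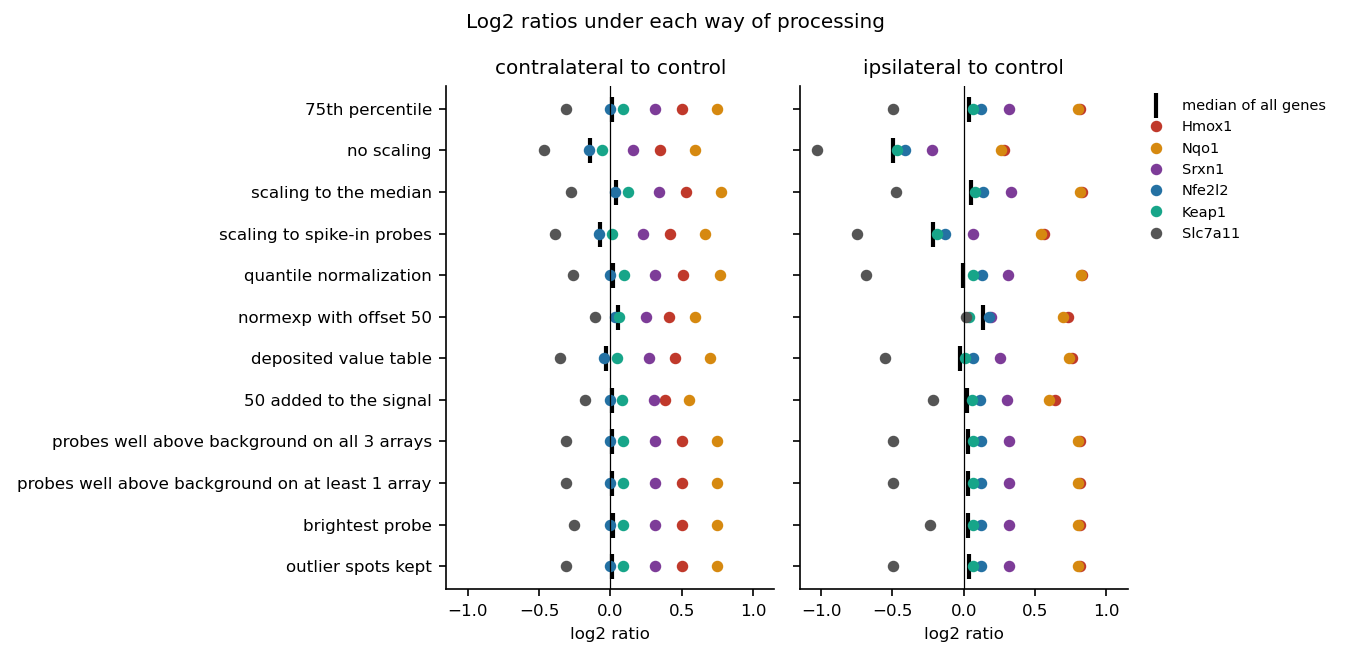
Log2 ratios to control of 6 of the genes under the 75th percentile scaling and 11 alternatives, for the contralateral (left) and ipsilateral (right) side, with a black mark at the median of all genes well above background. Hmox1 and Nqo1 lay to the right of that mark under every setting, Slc7a11 lay to its left, and without scaling all genes moved to the left, by most on the ipsilateral side, where Srxn1, Nfe2l2 and Keap1 fell below 0.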

How the data were processed

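The authors hybridised Cy3-labelled RNA to Agilent arrays. They deposited spot intensity, background-subtracted, from Agilent Feature Extraction 12.1.0.3. Their deposited value table holds intensity too, on a linear scale: the same signals times a factor per array (contralateral 1.12, ipsilateral 1.45, control 1.04; medians 139.4, 139.6 and 146.9), which may be the normalization to control samples that the methods name, though the sources used here do not say so. Here log2 processed signals, without control spots and the 759 outlier spots (none of the 10 genes), were shifted to a common 75th percentile and averaged over spots, then probes. Accessions were matched to symbols in the RefSeq table of GRCr8 (17622 of 39957, the rest kept as separate genes). No spot was saturated. All arrays lay on 1 slide, so there was no batch to compare. Genes were counted past a log2 ratio of 1 or -1, with no test. The error of a ratio combines the scanner errors of its arrays, and averaging does not reduce it. A bound compares the brighter signal with the dim probe's own or the lowest signal well above background, whichever is higher. It is approximate, since that lowest signal is not a limit of detection.

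The genes and lists were chosen with earlier results of these data known. Named are the 10 genes, Actb, the largest and smallest contralateral ratio of each of 6 pathway lists among genes whose probes were all well above background, genes of these lists past the threshold, the 3 genes nearest to Hmox1 and to Nfe2l2, and the gene with the brightest signal, by its mean log2 over the arrays, of each of 11 marker lists with those not well above background. Any others are marked as picked with their values known. Some genes that this rule names are not reported here.

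Results were recomputed without scaling, with scaling by 8 spike-in probes or by the median signal, with quantile normalization, with normexp (offset 50), from the deposited table, with 50 added to each signal, with 2 filters on dim probes, with the brightest probe of a gene and with outlier spots kept. Counting was tested on simulated data. Software was Python 3.11.15 (numpy 2.4.6, pandas 2.3.3, matplotlib 3.10.9) and R 4.3.3 (limma 3.58.1).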

Additional observations from a re-analysis of the deposited data

How the results depend on the processing

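Counts and medians over the genes were recomputed under 11 alternatives, and 88 of 99 values kept their size by the rule used (a count within 1.5 times, a median within the scanner error). Some of these values could not change. None of the genes had an outlier spot, and the filters on dim probes leave the medians as they are. Many counts were 0 throughout. The gene above 1 on the ipsilateral side, Osgin1, was lost (0 genes) without scaling, with normexp, with 50 added to the signal and among probes well above background on all 3 arrays. The gene below -1 between the sides was lost (0 genes) with normexp, with 50 added and among such probes. It stayed without scaling only as a ratio to a contralateral signal not well above background, which is not a bound. Without scaling, 1 gene, Slc7a11, was below -1 on the ipsilateral side, the median there was -0.44 in place of 0.09, and that between the sides was 0.39 in place of 0.01. With spike-in probes the ipsilateral median was -0.16. Without scaling and with spike-in probes the median of all genes shifted as well, and the filter leaves out Osgin1 by its construction. For the other alternatives the cause was not tested. For single genes and lists, 1376 of 1561 values moved by less than the scanner error. Signal over background limits the values of Osgin1, Gclm and the dimmer probes of Slc7a11 and Txnrd1, and 1 array per group leaves the spread between rats unmeasured.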

Other observations

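Several marker lists not described above also held genes that differed between the arrays. The part of these lists in the values of the Nrf2 pathway genes was not tested. The 6 markers of Bergmann glia and astrocytes, cells in which many Nrf2 targets are expressed, were all well above background, with summed signals of 73132 on the contralateral, 73853 on the ipsilateral and 81285 on the control array and medians of -0.03 and -0.06. Of the 6, 3 were above 0 and 3 below on each side. Aqp4, the water channel of astrocyte endfeet, had scaled signals of 26616, 28580 and 39026, with log2 ratios to control of -0.55 and -0.45, and Gfap, chosen after its values were seen, had -0.73 and -0.66. Both were dimmer on the MCAO arrays, while Gdf10, also chosen after its values were seen, was brighter at 0.39 and 0.27, except for -0.26 on the ipsilateral side without scaling. The 6 oligodendrocyte markers had medians of -0.14 and -0.12, with summed signals of 44047, 45670 and 46851.

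The 6 endothelial markers had medians of -0.22 and -0.12, with summed signals of 3479, 3605 and 4105 and Cldn5 at -0.19 and -0.14. Of 4 erythroid markers matched on the array 1 was well above background on all arrays, Hba-a1, at -0.88 and -1.03, while Alas2, Hbb and Slc4a1 were not. Hba-a1 was past the threshold under 1 of 11 alternatives contralaterally (-1.04) and under 9 ipsilaterally, where it was -0.95 at the weakest. The summed signal of the 4 was 1125, 1022 and 2101, lower on both MCAO arrays than on the control array. Of 6 forebrain neuron markers 3 were well above background on all arrays, with medians of 0.31 and 0.06 and Neurod6 at -0.05 and 0.06, and 3 were not. Nrgn, chosen after its values were seen, had scaled signals of 162.9 on the contralateral, 39.7 on the ipsilateral and 45.8 on the control array.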
